A study of Mus musculus with 6 samples.

Results

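Control replicate 2 is 1 of 2 libraries from the control group of C17.2 cells, and its transcript levels were compared with those of its sister, control replicate 1. C17.2 is an established mouse neural stem and progenitor line of immortalised cells, given in the labels with the strain CD1 x C57BL/6. Both control cultures are labelled as grown in growth medium, which was DMEM/F12 with 10% serum and an antibiotic mix. The study's 6 labelled samples fall into 3 groups of 2 biological replicates, and these 2 controls are the members chosen. Shown beside them are heme replicate 1, from cells labelled as heme-treated, and both neural induction replicates, from cells moved to Knockout DMEM with N2 supplement and the neurotrophin BDNF at 10 ng/ml. Heme replicate 2 was not used as a library, because each of its 13963 nonzero values is the heme replicate 1 value times a factor from 1.25 to 1.5, with the same 1150 transcripts at 0. For heme the dose and duration, and for induction its length, were not stated in the labels. Of 7171 loci in the table, 5985 had a mean of at least 5 FPKM over the 5 distinct libraries and were compared. FPKM scales fragment numbers to transcript length and library depth, and the FPKM of a locus is the sum of its transcripts in the table.

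With 1 library on each side there is no test of a condition, and no p-value is given. All differences are on the log2(FPKM + 1) scale unless called an FPKM ratio. A locus is counted as higher or lower when it differed by at least 1.5-fold on that scale. The libraries are called control 1, control 2, heme 1, induction 1 and induction 2 below, and 5 values given together stand in that order. Because each library is a bulk sample, fewer cells of a kind and less RNA per cell cannot be told apart.

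Several of the programs described here are well known from cultured cells. NRF2 is a transcription factor that drives enzymes of glutathione and thioredoxin metabolism when electrophiles or oxidants reach the cell, HIF drives glycolytic enzymes when oxygen is low, HSF1 drives cytosolic chaperones, and p53 drives Cdkn1a and Mdm2 after DNA damage and other insults. Genes of mitosis share a wave of transcription late in the cell cycle, after the wave of replication genes at the G1/S boundary. Sterol synthesis genes are driven by SREBP when membrane cholesterol is low.

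Control 2 lay further from every other library than those libraries lay from each other. Against control 1, 266 of 5985 loci were higher in control 2 (4.44% of those compared) and 285 were lower (4.76%), together 551 (9.21%). The median absolute difference was 0.19. In the 3 other pairs that hold control 2, the median absolute difference was 0.17 to 0.19 and 475 to 586 loci differed by 1.5-fold, while in the 6 pairs without it these values were 0.08 to 0.10 and 309 to 370. The median signed difference between the controls was -0.01, so the shift was not a common scaling. By any amount, control 2 was above control 1 in 48.1% of loci and below it in 51.9%.

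**Figure D1:**
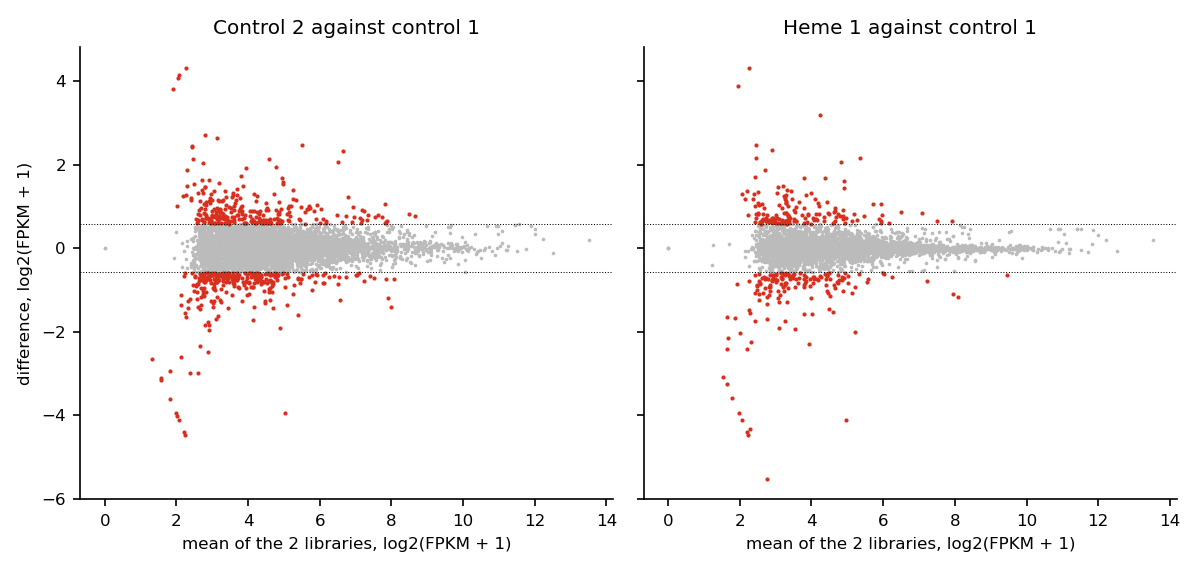
Difference from control 1 on the log2(FPKM + 1) scale (vertical axis) against the mean level of the 2 libraries (horizontal axis) for 5985 loci, for control 2 (left) and heme 1 (right). Red points differ by at least 1.5-fold (dotted lines): 551 loci on the left and 309 on the right, and the median absolute difference is 0.19 on the left and 0.08 on the right.

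Position among all 5 libraries gave the same picture. Control 2 was above all 4 others in 1728 loci (28.9%) and below all 4 in 2061 (34.4%), against 769 to 1193 and 734 to 1190 for each of the others. By at least 1.5-fold it was above all 4 in 62 loci (1.04%) and below all 4 in 94 (1.57%). Control 1 did so in 14 and 30 loci, heme 1 in 8 and 47, induction 1 in 17 and 48, and induction 2 in 14 and 60. Some loci also differed widely among the other libraries. Among the 4428 loci whose 4 other libraries lay within 1.3-fold of each other, a limit set after the values were seen, control 2 was 1.5-fold above in 47 and 1.5-fold below in 73. Of the 551 loci that differed between the controls, control 2 alone lay outside the range of the 3 other libraries in 192, control 1 alone in 67, both in 262 and neither in 30. Control 2 was thus outside that range in 454 of the 551 loci and control 1 in 329. Counts within the gene lists below are to be read beside the shares over all loci. Against control 1 these were 4.44% higher and 4.76% lower by 1.5-fold, and 48.1% higher and 51.9% lower by any amount. Above all 4 others were 28.9% and below all 4 were 34.4%.

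**Figure D2:**
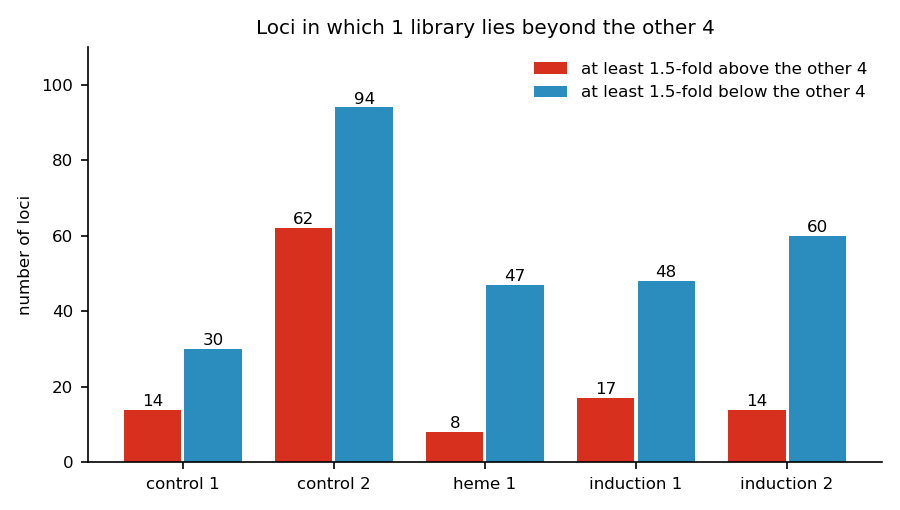
Number of loci (vertical axis, from 0) in which the library named on the horizontal axis lay at least 1.5-fold above (red) or below (blue) each of the other 4 libraries, of 5985 loci. Control 2 has the tallest bar in both directions, 62 above and 94 below.

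Summed over their listed transcripts, heme oxygenase 1 and metallothionein 1 were far higher in control 2 than in any other library. Hmox1, which encodes the enzyme that opens the heme ring and releases iron, was at 43.7, 222, 61.9, 79.4 and 46.2 FPKM. Control 2 stood 5.09-fold above its sister and above both the library of heme-treated cells and the induction libraries. The sum held transcripts of nearly equal length among which the libraries differed: the annotated one of 1606 bases was at 7.44, 38.3, 10.9, 76.6 and 44.3 FPKM, and an assembled one of 1627 bases at 35.3, 179, 49.5, 1.80 and 1.31 FPKM. For the annotated transcript alone, both induction libraries were above control 2. The same reservation touches other named loci. Of 145 with several transcripts and control 2 highest or lowest in the sum, control 2 was on the same side in the most abundant transcript in 105. Named genes in which it was not are Blvrb, Eng, Fam102b, Gapdh, Gm11226, Hilpda, Iscu, Kif2c, Mmp14, Mvk, Nupr1, P4ha2, Pfn2, Psme1, Top2a, Vegfa and Zyx. Mt1, a small cysteine-rich protein that binds zinc and copper, was at 43.9, 186, 46.7, 54.5 and 47.05 FPKM. The 4 other libraries lay close together for Mt1, and control 2 was at 4.24 times control 1. Slc30a1, the zinc exporter of the plasma membrane, had low values of 1.08, 3.70, 0.865, 1.15 and 0.925 FPKM, under the mean limit of the comparison, and control 2 was again the highest. Slc39a10, a zinc importer, was at 24.1, 18.5, 25.99, 25.1 and 25.2 FPKM, lowest in control 2. The other measured members of the metal list, all zinc transporters, differed from control 1 by -0.23 to 0.17, and the median over its 6 loci was 0.01.

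The promoters of Mt1 and Srxn1 are shown because these genes mark the metal and the NRF2 programs and were higher in control 2 than in each of the 4 others. Each is the 250 bases before the RefSeq start in GRCm38.p6, 5′ to 3′ on the gene's strand, at chr8:94178839-94179088 (plus strand) and chr2:152105274-152105523 (plus strand). Capitals mark matches on either strand to the metal response element core (TGCACNC or TGCGCNC) in Mt1 and to the antioxidant response element core (TGACNNNGC or TGAGNNNGC) in Srxn1.
Mt1: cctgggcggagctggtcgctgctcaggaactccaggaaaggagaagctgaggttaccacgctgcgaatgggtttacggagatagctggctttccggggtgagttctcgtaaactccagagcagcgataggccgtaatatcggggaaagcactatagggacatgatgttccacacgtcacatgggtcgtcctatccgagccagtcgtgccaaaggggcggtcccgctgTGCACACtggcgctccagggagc
Srxn1: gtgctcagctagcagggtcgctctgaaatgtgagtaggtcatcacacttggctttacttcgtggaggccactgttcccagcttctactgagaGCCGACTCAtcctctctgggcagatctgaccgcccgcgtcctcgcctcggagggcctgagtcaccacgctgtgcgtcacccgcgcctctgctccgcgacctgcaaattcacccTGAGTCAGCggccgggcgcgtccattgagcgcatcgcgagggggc
The Mt1 window held 1 match in the printed bases and 3 when the 50 bases after the start were included. The Srxn1 window held 2 matches in the printed bases and 3 in all. Over the 300-base windows of 4003 loci matched to RefSeq, 37.6% held a metal core match and 32.9% an antioxidant core match. Among the 21 matched loci of the NRF2 list 9 held the antioxidant core (42.9%). This share was not particular to that list. Other lists with at least 11 matched loci ranged from 20.8% for collagens and matrix to 71.4% for cholesterol synthesis, both lower in control 2. Over all matched loci the median difference between the controls was 0.00 with this core and -0.04 without it.

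Of the 28 measured loci of the NRF2 list, 13 were higher in control 2 by 1.5-fold and 1 was lower, and 21 were above all 4 other libraries. The median difference was 0.44, against -0.01 over all loci, and 0.25 against the median of the 3 libraries other than the controls. It was 0.239 among members with a mean of at least 20 FPKM, and control 1 was the lowest library in 12 of the 28. The same list had medians of 0.01 to 0.08 in heme 1 and the induction libraries against control 1, which all these comparisons share. Srxn1, sulfiredoxin, which reactivates oxidised peroxiredoxins, was at 16.1, 40.6, 15.01, 19.1 and 16.6 FPKM. Nqo1, a quinone reductase, was at 8.02, 19.6, 8.403, 10.9 and 8.68 FPKM. Blvrb, biliverdin reductase B, was at 6.696, 16.9, 6.25, 6.16 and 6.37 FPKM. In all 3 genes control 2 stood above the other libraries without overlap.

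Genes of glutathione, thioredoxin and cargo handling were named from the same list or the fixed set. Gclm, the regulatory subunit of the rate-limiting enzyme of glutathione synthesis, was at 7.45, 17.8, 9.603, 9.88 and 14.6 FPKM, with induction 2 close behind control 2. Txnrd1, thioredoxin reductase, was at 149, 258, 151, 179 and 155 FPKM, with no overlap. Sqstm1, the p62 receptor that carries ubiquitinated cargo to autophagosomes and holds back the NRF2 inhibitor KEAP1, was at 155, 321, 163, 176 and 170.0 FPKM, an FPKM ratio of 2.07 between the controls. Osgin1 shows the other pattern, at 2.56, 6.88, 8.03, 4.74 and 7.95 FPKM: here control 1 was low and control 2 was in the range of the rest. Nfe2l2, which encodes NRF2 itself and was named after its values were seen, was at 47.99, 48.1, 45.1, 45.1 and 45.4 FPKM and did not differ between the controls. Slc7a11, the cystine importer, was under the mean limit.

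The iron and NADPH lists did not stand out as groups, with 1 of 11 loci higher by 1.5-fold in each, against 4.44% of all loci. Tfrc, the transferrin receptor for iron uptake, was at 81.2, 138, 61.9, 85.5 and 79.9 FPKM. The ferritin heavy chain gene Fth1 was at 1792, 2251, 1981, 2104 and 1834 FPKM, and the light chain locus Ftl1, which overlaps Gm22133 in the table, at 3549.7, 4831, 3786, 4086 and 3810.3 FPKM. Control 2 was highest in all 3 loci, and below 1.5-fold in both ferritins. Iscu, a scaffold for iron-sulfur clusters, was at 28.4, 17.99, 26.7, 19.04 and 24.4 FPKM, lowest in control 2 but near induction 1. In the iron list 1 locus was also lower by 1.5-fold, and the median was -0.03. Pgd, which makes NADPH in the pentose phosphate pathway, was at 95.02, 160.5, 93.8, 110.4 and 98.3 FPKM and was the NADPH locus past 1.5-fold. In that list 6 loci were higher and 5 lower by any amount, with a median of 0.24. Idh1, a cytosolic NADPH source outside that pathway, was at 15.7, 10.2, 17.3, 16.8 and 20.1 FPKM, lowest in control 2.

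**Figure D3:**
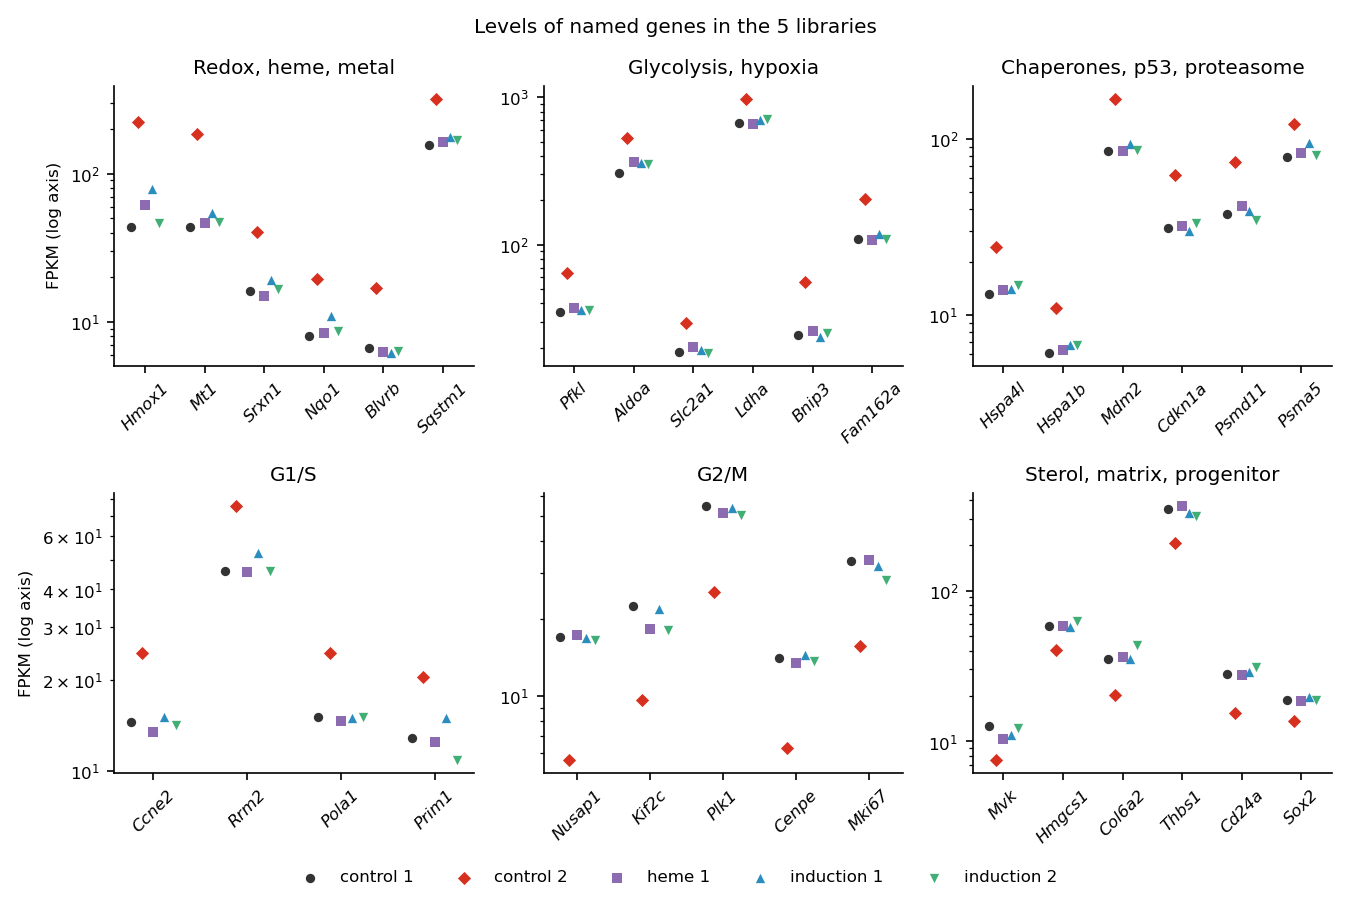
FPKM on a log axis of 33 named genes in the 5 libraries, 1 symbol per library, grouped by program. The red diamonds of control 2 lie above all other symbols in the upper row and in the G1/S panel, and below them in the G2/M panel and in the panel of sterol, matrix and progenitor genes.

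Nearly the whole glycolytic pathway was higher in control 2. Of 17 measured loci 16 were higher by any amount and 15 were above all 4 other libraries, while 4 passed 1.5-fold, and the median difference was 0.50. Pfkl, a phosphofructokinase that commits sugar to glycolysis, was at 35.01, 64.5, 36.96, 36.3 and 36.3 FPKM. Slc2a1, the glucose transporter GLUT1, was at 18.8, 29.6, 20.2, 19.4 and 18.5 FPKM. For both genes the 4 other libraries were within a narrow band and control 2 was apart. Aldoa, which splits the sugar, was at 308, 528, 362, 359 and 352 FPKM, and Gapdh, the next dehydrogenase, at 187, 294, 246, 217 and 232 FPKM. Here control 1 was also the lowest library, so part of the control difference lies on its side. Ldha, which turns pyruvate into lactate, was at 671, 978, 661, 702 and 708 FPKM, and Gpi1, which interconverts the first sugar phosphates, at 195, 284, 207, 199 and 202 FPKM. The only member below control 1 was Pfkfb3, at 8.401, 6.48, 8.51, 11.5 and 11.3 FPKM, which makes the activator of phosphofructokinase and was named after its values were seen. Measured against the median of the 3 libraries other than the controls, the median of the list was 0.37.

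Most other genes known as HIF targets were higher too. Of 15 loci 5 were higher by 1.5-fold, 0 were lower, 11 were above all 4 others and 3 below all 4, and the median was 0.30. Bnip3, a mitophagy receptor on the outer mitochondrial membrane, was at 24.4, 56.2, 26, 23.6 and 25.2 FPKM. Fam162a, a mitochondrial protein induced by hypoxia, was at 109, 204, 108, 119 and 109 FPKM. Higd1a, which binds the respiratory chain under low oxygen, was at 12.5, 20.05, 12.5, 14.6 and 13.6 FPKM, and P4ha2, a collagen prolyl hydroxylase, at 23.5, 37.4, 21.97, 21.1 and 23.7 FPKM. In all 4 genes control 2 was above the other libraries without overlap. Vegfa, the angiogenic factor, was at 16.7, 19.9, 12.5, 14.8 and 15.1 FPKM, a smaller distance. The members below all 4 others were Ndrg1, Ddit4 and Plod2, named after their values were seen, at 51, 40.9, 51.4, 44.4 and 49.7, at 64.2, 61.6, 66.5, 70.9 and 76.3 and at 97.2, 94.3, 100.1, 96.6 and 107 FPKM. Hilpda, a lipid droplet protein induced by hypoxia and counted in the lipid list, was also lowest in control 2, at 11.3, 7.75, 9.22, 9.56 and 8.44 FPKM.

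The Bnip3 promoter is shown for this group, at chr7:138909507-138909756 of GRCm38.p6 on the minus strand, again the 250 bases before the start. Capitals mark the hypoxia response element core (ACGTG) on either strand, whose 2 matches overlap at 1 place.
Bnip3: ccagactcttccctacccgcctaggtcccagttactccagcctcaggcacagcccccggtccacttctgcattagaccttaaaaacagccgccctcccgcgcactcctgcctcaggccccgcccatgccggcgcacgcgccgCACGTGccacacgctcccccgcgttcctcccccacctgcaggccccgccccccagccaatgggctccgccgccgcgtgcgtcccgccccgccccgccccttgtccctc
The core was in the windows of 9 of 11 matched loci of the hypoxia list (81.8%) and 10 of 16 of the glycolysis list (62.5%), against 28.6% of all matched loci. Outside these lists, loci with the core had a median control difference of -0.01 and loci without it of -0.03.

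Cytosolic chaperones and the proteasome were shifted upward by smaller steps. In the heat shock list 20 of 21 loci were higher by any amount, 17 were above all 4 others, 2 passed 1.5-fold and the median was 0.26. Hspa4l, an HSP110 nucleotide exchange factor, was at 13.1, 24.4, 13.7, 14 and 14.7 FPKM. Hspa1b, the classical inducible HSP70, was at 6.05, 10.9, 6.28, 6.73 and 6.69 FPKM, and its co-chaperone Dnajb1 at 17.4, 26.4, 16.6, 18.04 and 18.2 FPKM. These 3 genes were apart from all other libraries, while Hsp90ab1, the constitutive HSP90 named after its values were seen, was at 1563, 1574, 1521, 1541 and 1492 FPKM and differed little. The heat shock element, written GAANNTTC or TTCNNGAA, was in 9 of 16 matched promoters of this list (56.3%), against 11.6% of all. All 32 loci of proteasome subunits and assembly factors were higher in control 2 than in control 1 and 30 were above all 4 others, with a median of 0.25, while 2 passed 1.5-fold (6.25%, against 4.44% of all loci). Psmd11, a lid subunit, was at 37.2, 73.8, 41.4, 39.1 and 34.3 FPKM, and Psma5, a subunit of the outer ring of the core particle, at 79.1, 122, 83.2, 94.5 and 80.4 FPKM. The lowest member, Psmd6, was 0.11 above control 1. The immunoproteasome subunit Psmb10 and the activator subunit Psme1, counted in the interferon list, were lowest in control 2 instead, at 13.2, 9.595, 10.3, 12.2 and 13.2 and at 18.9, 13.98, 23.2, 22.4 and 18.3 FPKM. The most abundant Psme1 transcript alone was highest in control 2, at 4.04, 7.62, 6.56, 7.13 and 6.48 FPKM.

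The stress of the endoplasmic reticulum was not part of this pattern. Of 23 loci of its unfolded protein response 18 were below all 4 other libraries, 3 were lower by 1.5-fold and 1 higher, with a median of -0.18. Herpud1, which recruits the degradation machinery to the reticulum membrane, was at 32.1, 20.1, 30.02, 30.2 and 25.9 FPKM, and Hyou1, a reticulum chaperone, at 50.9, 39.2, 48.9, 49.9 and 49.8 FPKM. Both were lowest in control 2. Dnajb9, a co-chaperone that holds back the sensor IRE1, was highest in control 2 at 12.8, 17.9, 12.4, 12.2 and 11.7 FPKM. The 1 member higher by 1.5-fold was Derl2, a component of reticulum degradation, at 7.99, 12.5, 13.6, 14.5 and 14.3 FPKM, where control 1 was the low library. Hspa5, the reticulum HSP70 called BiP, was at 360.4, 156, 167, 174 and 357 FPKM, 2 libraries high and 3 low. Its most abundant transcript was at 349.3 and 346.1 FPKM in control 1 and induction 2 and at 92.3 to 93.3 in the other 3, so the locus sum follows that transcript and no direction is given for the gene. Manf, a secreted reticulum protein, was at 30.7, 8.62, 24.6, 29.7 and 29.9 FPKM, low in control 2 alone. Its longest transcript, of 960 bases, was at 4.18, 6.63, 3.61, 3.11 and 3.02 FPKM, highest in control 2, and the low sum came from 2 transcripts of 510 and 502 bases. Of 24 loci of the integrated stress response 1 was higher by 1.5-fold and 0 were lower, with a median of 0.05. Its regulators Atf4, at 178, 190.3, 180.0, 181 and 183 FPKM, and Ddit3, which encodes CHOP, at 15.7, 14.4, 12.6, 13.5 and 18.2 FPKM, were nearly level. The 1 higher member was Nupr1, a chromatin-binding stress protein, at 10.4, 26.97, 24.6, 18.5 and 16.9 FPKM, where control 1 was the low library. Calling control 2 stressed, a working name given with these values known, does not extend to these 2 lists.

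Most genes induced by p53 were higher in control 2. Of 22 loci 18 were higher by any amount, 15 were above all 4 others and 4 were below all 4. By 1.5-fold 3 were higher (13.6%, against 4.44% of all loci) and none lower, with a median of 0.31. Mdm2, the ubiquitin ligase that limits p53, was at 84.9, 169, 85.6, 93.1 and 86.9 FPKM. Cdkn1a, the p21 inhibitor of cyclin-dependent kinases, was at 31.02, 62.1, 31.7, 30.03 and 33.4 FPKM. The FPKM ratios between the controls were 1.99 and 2.001, and the 4 other libraries were close together. Zmat3, an RNA-binding p53 target, was at 13.98, 21.6, 16.2, 14.4 and 15.4 FPKM, and Trp53inp1, which promotes autophagy and p53 activity, at 7.104, 11.1, 7.12, 8.52 and 8.799 FPKM. Tnfrsf10b, the death receptor for TRAIL, was at 12.5, 17.97, 12.2, 13.4 and 13.3 FPKM, and Epha2, a receptor tyrosine kinase, at 24.4, 34.7, 24.97, 24.96 and 23.2 FPKM. Trp53 itself, named after its values were seen, was at 90.3, 107, 87.8, 91.3 and 85.6 FPKM.

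The 2 waves of the cell cycle were split in control 2. Replication genes were higher: of 40 loci of the G1/S list 36 were higher by any amount, 32 were above all 4 others and 4 passed 1.5-fold, with a median of 0.31. Mitotic genes were lower: of 66 loci 53 were lower by any amount, 49 were below all 4 others and 19 passed 1.5-fold, with 1 higher by that step and a median of -0.40. The 3 other libraries did not show this split: the medians of heme 1, induction 1 and induction 2 against control 1 were -0.03, 0.05 and -0.03 for G1/S and -0.06, 0.04 and -0.01 for G2/M.

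Among replication genes, Ccne2, the cyclin that starts S phase, was at 14.6, 24.6, 13.5, 15.1 and 14.2 FPKM. Rrm2, the regulated subunit of ribonucleotide reductase, was at 46.01, 75.8, 45.6, 52.9 and 46.2 FPKM. Pola1, the catalytic subunit of DNA polymerase alpha, was at 15.1, 24.5, 14.6, 14.99 and 15.1 FPKM, and Prim1, its primase partner, at 12.9, 20.4, 12.5, 14.9 and 10.9 FPKM. All 4 were highest in control 2 and the first 3 had narrow values elsewhere. Tyms, thymidylate synthase, was higher in control 2 than in control 1 but highest in induction 1, at 7.34, 10.7, 6.79, 18.2 and 8.58 FPKM. The E2F site (TTTCCCGC, TTTGGCGC, TTTCGCGC or TTTGCCGC) was in 12 of 34 matched promoters of this list (35.3%), against 4.70% of all matched loci. Outside the list, the 176 loci with that site had a median difference of 0.05 and those without it of -0.03.

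Among mitotic genes, Nusap1, which bundles spindle microtubules, was at 16.9, 5.62, 17.2, 16.7 and 16.5 FPKM, with an FPKM ratio of 3.01 of control 1 to control 2. Kif2c, a kinesin that depolymerises microtubules at the centromere, was at 22.3, 9.68, 18.2, 21.8 and 17.98 FPKM. Plk1, the polo kinase of mitotic entry, was at 54.96, 25.3, 51.6, 53.7 and 50.5 FPKM. Cenpe, the kinesin of chromosome alignment, was at 14.1, 6.25, 13.4, 14.4 and 13.6 FPKM, and Cenpa, the histone that marks centromeres, at 10.6, 4.84, 8.42, 12.2 and 9.97 FPKM. Mki67, the coat protein of mitotic chromosomes and common marker of dividing cells, was at 33.5, 15.7, 33.8, 32.1 and 28.2 FPKM. In each of these 6 genes control 2 was lowest and did not overlap the range of the others. Ccnb1, cyclin B1, was at 34.6, 21.4, 30.6, 34.96 and 36.7 FPKM, lowest in control 2 with a smaller gap. Cdk1, its kinase, was at 128, 86.4, 129, 97.9 and 136 FPKM. The most abundant Cdk1 transcript alone was at 109, 6.25, 105, 14.7 and 110 FPKM, low in control 2 and induction 1. The Cdk1 sum was lowest in the same libraries, so no direction is given for that gene. Top2a, the topoisomerase that untangles sister chromatids, was at 87.3, 70.00, 83.9, 87.7 and 87.2 FPKM. Of the 94 loci in which control 2 was 1.5-fold below all 4 others, 15 were in this list, which holds 66 of the 5985 loci compared.

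The list had exceptions in the other direction: 13 of its 66 loci were higher by any amount and 8 were above all 4 others. Nek2, a centrosome kinase named after its values were seen, was at 7.21, 12.3, 6.56, 7.57 and 6.75 FPKM and was the 1 member higher by 1.5-fold. Gtse1, Ncapg and Mybl2, also named after their values were seen, were above all 4 others in control 2, at 31.9, 47.6, 30.99, 35.7 and 32.01, 21.6, 30.6, 20.4, 24.1 and 21.5 and 21.8, 27.8, 21.7, 22.9 and 22.2 FPKM in turn. Birc5, Smc4 and Mad2l1, which act at the centromere, in condensin and in the spindle checkpoint and were also named after their values were seen, differed between the controls by -0.06 to 0.01. Among cell cycle inhibitors other than Cdkn1a, Gas1, a growth arrest protein of the membrane, was at 11.7, 6.86, 11.2, 11.8 and 11.9 FPKM, lowest in control 2. H2afx, the histone variant of DNA damage signalling, was at 34.5, 21.7, 34.9, 38.3 and 35.2 FPKM and was the only 1 of 11 histone loci lower by 1.5-fold.

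**Figure D4:**
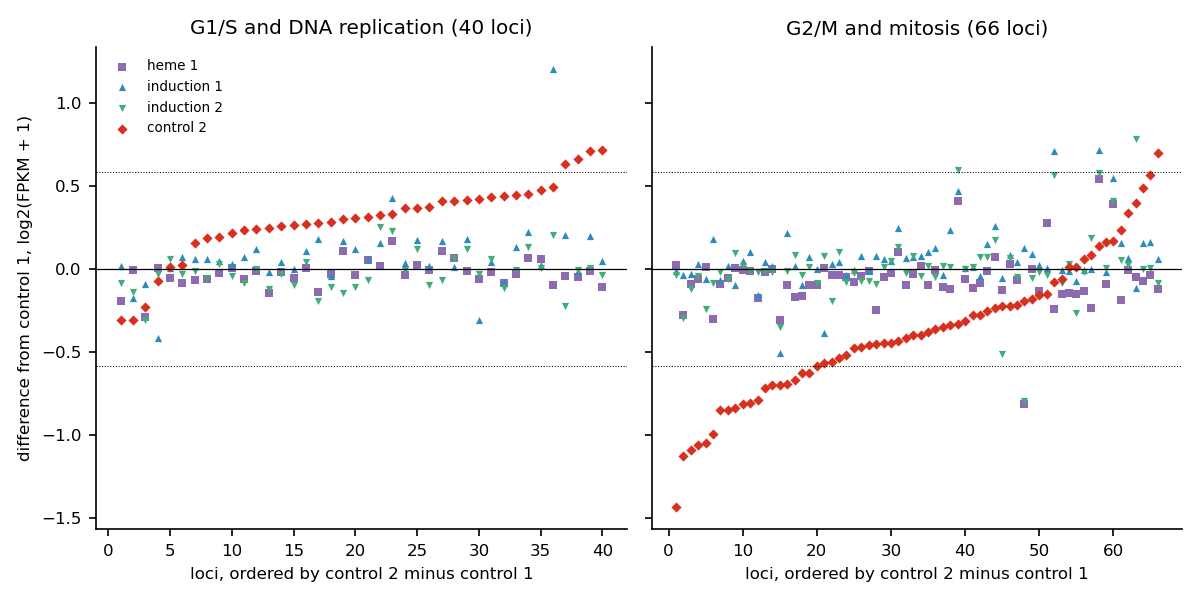
Difference from control 1 on the log2(FPKM + 1) scale (vertical axis) of each locus of the G1/S list (left, 40 loci) and the G2/M list (right, 66 loci), ordered by the value of control 2. Red diamonds of control 2 lie mostly above 0 on the left and mostly below 0 on the right (medians 0.31 and -0.40), while the symbols of the 3 other libraries scatter about 0; dotted lines mark 1.5-fold.

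The Plk1 promoter is shown because most mitotic promoters carry the same pair of short motifs. It lies at chr7:122159185-122159434 of GRCm38.p6 on the plus strand, and capitals mark the cell cycle homology region (TTTGAA or TTTAAA) and the CCAAT box (CCAAT), each searched on both strands.
Plk1: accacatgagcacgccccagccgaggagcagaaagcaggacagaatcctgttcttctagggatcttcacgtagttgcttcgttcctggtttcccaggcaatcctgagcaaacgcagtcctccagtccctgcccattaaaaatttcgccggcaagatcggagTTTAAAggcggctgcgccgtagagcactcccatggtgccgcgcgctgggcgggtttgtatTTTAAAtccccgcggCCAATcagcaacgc
The printed bases held 2 matches to the first motif and 1 to the second. The first was in 45 of 55 matched loci of the G2/M list (81.8%), against 17.9% of all matched loci, and the CCAAT box in 43 of 55 (78.2%), against 39.9%. Of the 64 matched loci with control 2 at least 1.5-fold below all others, 22 held the first motif (34.4%). The 45 mitotic loci with it had a median difference of -0.40 and the 10 without it of -0.20. Outside the list, loci with the motif had a median of -0.03 against -0.02 without it.

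Cholesterol synthesis was lower in control 2. Of 21 loci 17 were lower by any amount and 16 were below all 4 others, but 1 passed 1.5-fold (4.76%, the same share as over all loci), and the median was -0.28. Mvk, mevalonate kinase, was at 12.6, 7.53, 10.4, 11.1 and 12.2 FPKM and was the member past 1.5-fold. Hmgcs1, which makes the precursor of mevalonate, was at 58.1, 40.3, 58.2, 57.5 and 62.5 FPKM. Fdft1, squalene synthase, was at 18.2, 12.3, 17.4, 17.3 and 17.1 FPKM, and Dhcr7, the last reductase of the pathway, at 18.7, 12.5, 17, 20.8 and 18.6 FPKM. These 4 genes were lowest in control 2 without overlap. Fatty acid synthesis and lipid storage had a median of -0.06 with 0 of 17 loci past 1.5-fold.

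The Hmgcs1 promoter is shown as the 1 promoter among 14 matched loci of the sterol list with the sterol regulatory element, written TCACNCCAC. It lies at chr13:119690101-119690350 of GRCm38.p6 on the plus strand, and the RefSeq start is 111 bases from the 5′ end of the most abundant listed transcript.
Hmgcs1: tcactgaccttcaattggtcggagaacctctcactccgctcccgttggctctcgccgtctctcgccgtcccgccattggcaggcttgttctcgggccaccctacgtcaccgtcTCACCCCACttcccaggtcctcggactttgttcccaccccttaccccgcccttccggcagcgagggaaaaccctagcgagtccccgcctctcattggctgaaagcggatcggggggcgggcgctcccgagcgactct
Of all matched loci 32 held this motif (0.80%), with a median control difference of -0.08.

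Extracellular matrix genes were nearly all lower in control 2. Of 36 loci 34 were lower in control 2 by any amount, 33 were below all 4 other libraries and 5 passed 1.5-fold, with a median of -0.34. Col6a2 and Col6a1, chains of the collagen VI microfibril, were at 35.4, 20.3, 36.1, 35.2 and 43.9 and at 133, 81.7, 133, 131 and 149 FPKM. Thbs1, thrombospondin 1, which binds matrix and activates latent TGF-beta, was at 346, 207, 364, 327 and 313 FPKM. Mmp14, a membrane metalloproteinase, was at 118, 72.5, 108, 116 and 107 FPKM, and Timp3, an inhibitor of such enzymes held in the matrix, at 163, 104, 166, 159.6 and 157 FPKM. All 5 were without overlap. Col1a1, the main chain of collagen I, was at 1053, 807, 1029, 1009.7 and 1074 FPKM, and Fn1, fibronectin, at 709.6, 676, 709, 690.0 and 752 FPKM, the former a smaller gap and the latter a slight one. Summed over the list, FPKM was 9420 in control 1 and 7502 in control 2, against 8895 to 9427 in the other 3.

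Integrins and adhesion proteins were described apart from the matrix. Of their 27 loci 3 were lower by 1.5-fold and 1 higher, with a median of -0.07. Itgb3, the integrin beta 3 chain, was at 8.27, 4.46, 8.17, 7.25 and 7.98 FPKM, lowest in control 2. Zyx, a zinc finger protein of focal adhesions, was at 211, 132, 154, 142 and 148 FPKM, with control 1 the high library, and Lims1, the adhesion adaptor PINCH1, at 72.97, 23.3, 17.3, 18.8 and 16.7 FPKM, where control 1 was high and control 2 near the rest. Among 17 loci of YAP and TEAD targets the median was 0.02, and 0.17 without control 1. By any amount 9 were higher and 8 lower, and by 1.5-fold 3 were higher (17.6%, against 4.44% of all loci) and 0 lower. Control 2 was above all 4 others in 9 and below all 4 in 6. Cyr61 was at 184, 284, 202, 172 and 162 FPKM and Ctgf, both secreted matricellular proteins, at 162, 213, 184, 153 and 146 FPKM, each highest in control 2. Fstl1, another member, was lowest in control 2, at 184, 135, 177, 170 and 173 FPKM. Acta2, smooth muscle actin, was at 817, 725, 844, 729.6 and 729.6 FPKM, where control 2 was level with both induction libraries.

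**Figure D5:**
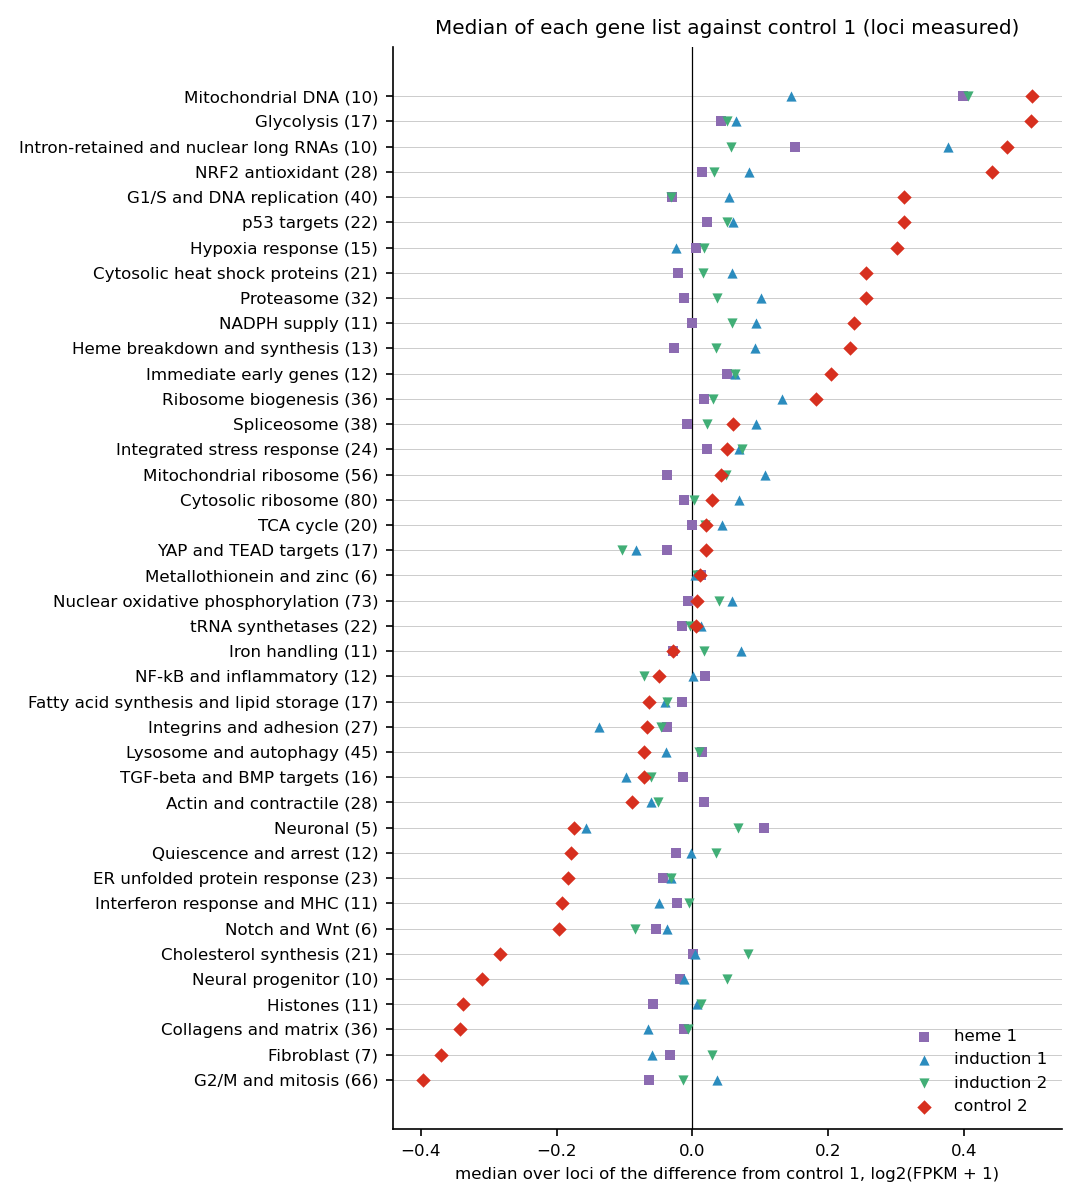
Median difference from control 1 on the log2(FPKM + 1) scale (horizontal axis) of 40 gene lists with at least 5 measured loci (number in brackets), for control 2 (red diamonds), heme 1 and both induction libraries, which share control 1 as the reference. Control 2 reaches from -0.40 for G2/M to 0.50 for mitochondrial DNA and glycolysis, while the other libraries lie between -0.16 and 0.41.

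Markers of the progenitor state were uneven. Nes, the intermediate filament nestin, was at 132, 132, 128, 123 and 108 FPKM and equal in the controls. Sox2, a stem cell transcription factor, was at 18.7, 13.6, 18.6, 19.8 and 18.9 FPKM, and Cd24a, a surface glycoprotein of neuroblasts and progenitors, at 28.1, 15.5, 27.6, 28.98 and 31 FPKM. Hes6, an antagonist of Notch signalling, was at 6.27, 3.498, 5.46, 5.34 and 7.04 FPKM. The last 3 were lowest in control 2, and over 10 loci 2 were lower by 1.5-fold and 0 higher, with a median of -0.31. Nes and Sox2, the defining markers of the labelled cell type, were present in all libraries. Of the neuronal markers 5 of 23 had loci compared, with a median of -0.17, and -0.285 without control 1. Stmn1, a tubulin-binding protein, was at 83.4, 62.96, 81.9, 72.2 and 77.03 FPKM, and Tubb3, neuronal tubulin, at 12.9, 11.3, 13.99, 11.5 and 13.6 FPKM, while Ncam1, a neural adhesion molecule, was at 15.9, 25.7, 28.8, 30.96 and 25.2 FPKM with control 1 the low library.

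Few markers of other cell types were measured. None of 13 myeloid and none of 13 erythroid markers matched a listed transcript. Of 10 endothelial markers only Eng did, at 68.5, 63.6, 69.6, 66.4 and 67.2 FPKM. The 2 astrocyte loci of 12, Gja1 and Clu, were at 81.5, 70.1, 81.2, 87.3 and 84.8 and at 102, 91.2, 102, 95.5 and 101 FPKM, and the 3 oligodendrocyte loci of 12 included Sox10 at 36.8, 26.3, 38.4, 35.2 and 36.9 FPKM. These 4 were lower in control 2 than in control 1. All 7 fibroblast loci of 13, most of them matrix genes already counted, were below all 4 others, and their summed FPKM was 4726 in control 2 against 5575 to 5829 elsewhere. The part that a mix of cells had in these differences was not tested.

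Housekeeping programs were close to level between the controls. The median difference was 0.03 for 80 cytosolic ribosomal protein loci, 0.01 for 73 nuclear loci of oxidative phosphorylation, 0.02 for 20 of the citric acid cycle and 0.01 for 22 tRNA synthetases. At most 2 loci passed 1.5-fold in any direction in each of these lists. Ribosome biogenesis was slightly higher, with 31 of 36 loci higher by any amount, 3 past 1.5-fold and a median of 0.18. In that list Polr1e, a subunit of RNA polymerase I, was at 4.94, 10.4, 6.497, 9.69 and 12.5 FPKM, where control 1 was the low library, and Gar1, a snoRNP protein, at 21.6, 33.3, 25.2, 26.5 and 28.5 FPKM.

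In mitochondrial DNA the difference lay more on the side of control 1. All 10 loci were higher in control 2 than in the 4 other libraries, with a median of 0.50 against control 1, and 0 passed 1.5-fold. Control 1 was below all 4 others in 8. mt-Cytb, the cytochrome b of complex III, was at 2480.4, 3678, 3429, 2899 and 3302 FPKM, and mt-Co1, a core subunit of complex IV, at 3162, 4594, 4283, 3839.9 and 4384 FPKM. Against the median of the 3 other libraries, control 2 was 0.09 higher and control 1 was 0.40 lower. Mitochondrial transcripts took 7.33% of listed FPKM in control 1, 9.15% in control 2, 8.98% in heme 1, 7.53% in induction 1 and 8.88% in induction 2. Small nucleolar RNAs are short transcripts that guide the modification of ribosomal RNA. Of 28 loci whose most abundant transcript is of this class, 15 were higher by 1.5-fold in control 2, with a median of 0.62. Each locus sums all its listed transcripts, which can include those of a host gene. In these loci control 2 was 0.27 above and control 1 0.22 below the median of the other 3. Against control 1 the medians of heme 1, induction 1 and induction 2 were 0.18, 0.34 and 0.10.

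The loci with the largest differences were in part loci that jump between libraries. By the naming rule the top of the higher side was Lrrc8d, a subunit of a volume-regulated anion channel, at 0.0734, 20.5, 20.5, 2.69 and 20.4 FPKM, where control 1 was near 0 and 2 other libraries were level with control 2. Chpf2, an enzyme of chondroitin synthesis, was at 1.72, 16.8, 1.04, 12.6 and 3.56 FPKM, Noct, a clock-controlled phosphatase, at 2.56, 21, 5.18, 6.303 and 16.2 FPKM, and Peak1, a pseudokinase of the cytoskeleton, at 16.1, 54.2, 51.2, 16.7 and 12.1 FPKM. In these 3 the other 4 libraries spanned 3.98-fold to 6.69-fold on the same scale, so they say little about control 2. Nmd3, an export adaptor of the large ribosomal subunit, was at 10.6, 49.7, 35.99, 38.9 and 35.4 FPKM, Pfn2, a profilin, at 1.65, 10.6, 5.495, 6.07 and 5.79 FPKM, and Arrb2, beta-arrestin 2, at 2.74, 10.5, 6.57, 9.07 and 7.39 FPKM. Mt1 and Gm11226, the latter at 6.83, 28.6, 6.37, 6.64 and 6.55 FPKM, were the 2 of these 12 loci whose 4 other libraries lay within 1.3-fold of each other.

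On the lower side, St6galnac4, a sialyltransferase, was at 7.79, 0.02196, 7.62, 5.01 and 7.89 FPKM and Nsg1, an endosomal protein of neurons, at 8.898, 0.281, 6.24, 5.84 and 8.49 FPKM. Tob2, an antiproliferative adaptor of mRNA deadenylation, was at 13.8, 2.83, 14.3, 14.1 and 13.02 FPKM. Pex2, a ubiquitin ligase of peroxisome import, was at 12.2, 2.69, 12.2, 12.7 and 9.77 FPKM, and Tmem167b, a Golgi protein, at 14.5, 3.81, 13.4, 13.3 and 14.8 FPKM. Fam168a was at 12.8, 3.01, 13.5, 13.1 and 13.8 FPKM. These 6 were low in control 2 alone. Fam102b, Pygo2 and Glmp were low in induction 2 as well, at 13.8, 0.865, 12.6, 12.4 and 1.64, at 13.2, 1.77, 12.3, 10.1 and 2.06 and at 56.9, 14.3, 49.7, 44.9 and 15.3 FPKM, and Tpbg, an inhibitor of Wnt signalling, in heme 1 as well, at 16.7, 2.12, 4.26, 15.7 and 17.1 FPKM.

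Among the 47 loci set apart upward with tight values elsewhere, several named after their values were seen belong to no list. Hoxb9, a posterior homeobox factor, was at 14.6, 31.9, 13.5, 14.2 and 14.1 FPKM, and Ces1g, a carboxylesterase, at 26.4, 59.4, 25.2, 26.1 and 25.3 FPKM. Otud6b, a deubiquitinase, was at 18.9, 41.7, 19.02, 19.8 and 19.7 FPKM, Mlkl, the pore former of necroptosis, at 20.5, 38.4, 21.9, 23.8 and 21.1 FPKM, and Atg9b, a lipid scramblase of autophagosomes, at 7.298, 15.2, 6.42, 7.48 and 6.91 FPKM. Of the 62 loci 54 had a gene name and 26 were in a list, and of the 94 loci 86 and 24, while 946 of all 5985 were in a list.

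Control 1 had a smaller set of its own. By the naming rule its leading high locus was Lars2, the mitochondrial leucyl-tRNA synthetase, at 128, 7.33, 6.43, 7.25 and 55.4 FPKM, with induction 2 also high. Zfp422, at 1.32, 11.6, 1.44, 13.8 and 1.43 FPKM, and Gm12999, at 1.34, 11.6, 11.9, 7.47 and 1.49 FPKM, were low in control 1 and in 1 or 2 other libraries. In 8 loci control 2 was listed at 0 and control 1 was not, and in 3 the reverse. In 5 loci control 2 was at 0 while the 4 others were each at least 5 FPKM, among them Rbm6, an RNA-binding protein, at 7.94, 0, 7.28, 7.397 and 7.18 FPKM and Tsc22d4 at 11.3, 0, 7.82, 11.8 and 12.1 FPKM, both named after their values were seen. Control 1 had 0 such loci.

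Mapped sequence was 4.44 gigabases in control 1 and 4.35 in control 2, within the range of 4.14 to 4.56 over the 5 libraries. Over loci, Spearman's rho of the control difference was -0.08 with transcript length (5985 loci) and -0.05 with GC content (4900 loci, 81.9% with a value), given as descriptions. In 5 equal bins of length the median difference went from 0.03 in the shortest to -0.05 in the longest, and the share past 1.5-fold was between 8.69% and 9.97%. By chromosome, the autosomes and X had medians from -0.05 to 0.03. The dominant transcript differed between the controls in 31.2% of 3629 loci with several transcripts, against 30.3% to 32.1% in the other pairs. The part of these measures in the differences was not tested.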

How the data were processed

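RNA from C17.2 cells was sequenced in 6 labelled samples, and reads were aligned and assembled with tools listed as HISAT2 and StringTie, on GRCm38 (mm10), per the submitters' processing notes, which also list edgeR and give no versions. The authors deposited 1 table of 15113 transcripts with FPKM and per-base coverage for each library. FPKM was summed over the transcripts of a locus, and loci with a mean of at least 5 FPKM over 5 distinct libraries were kept. Coverage, as deposited by the authors, was used with FPKM only to derive mapped sequence, 4.14 to 4.56 gigabases a library. Read counts were not used, so no counting interval is given.

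Differences were taken on the log2(FPKM + 1) scale. With 1 library a side no test was made; with 2 replicates a group the labels do not say whether cultures were separate beyond calling them biological replicates. Of 10948 named transcripts, 10897 matched GENCODE release M21, and 30 symbols turned into dates were restored. Promoters came from RefSeq (GRCm38.p6). The procedure was run on simulated levels with changes well above the 1.5-fold step, placed in loci of at least 20 FPKM. That run does not cover differences near 1.5-fold, lower levels or loci that switch between transcripts. Python 3.11.15, pandas 2.3.3, numpy 2.4.6 and matplotlib 3.10.9 were used.

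The libraries and the 45 gene lists were chosen with earlier results of these data known. Genes were named by rule: up to 12 single-symbol loci per direction with the largest control difference among those where control 2 lay beyond all others, up to 6 likewise for control 1, up to 6 members of each list with the largest difference, and a fixed set of marker genes. Of that set, Mt2 and Hspa1a are not analysed here. Alternatives covered the pseudocount, the filter, the fold, the scaling, single transcripts, control 1 left out of all results and each other library left out of the counts of loci beyond all others.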

Additional observations from a re-analysis of the deposited data

How the results depend on the processing

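No paired analysis was possible because no test was made and the controls are 1 library on each side. The 266 higher and 285 lower loci became 162 and 149 with a pseudocount of 5, 554 and 531 with no filter, 89 and 90 at a mean of at least 20 FPKM, 1133 and 1057 over single transcripts, 79 and 71 at 2-fold, and 88 and 134 among loci with tight values elsewhere, an alternative chosen after seeing the data. The loci 1.5-fold above and below all others, 62 and 94, became 32 and 43, 143 and 165, 25 and 28, 191 and 322, and 12 and 24 under the first 5 of these, and 74 to 91 and 110 to 121 with 1 other library left out. Above all others by any amount were 959 and below them 1211 at a mean of 20 FPKM, and 1856 to 2053 and 2230 to 2281 with 1 library left out. Against the mean of the 3 libraries other than the controls, that is without control 1, 199 loci were higher and 221 lower. The median absolute difference was 0.287 over single transcripts and 0.172 without control 1. The NRF2 median of 0.441 was 0.239 at a mean of 20 FPKM, 0.587 over single transcripts, 0.295 without control 1 and 0.253 among loci with tight values elsewhere. Without control 1 the medians were 0.379 for glycolysis, 0.415 for hypoxia, -0.376 for cholesterol synthesis and 0.157 for mitochondrial DNA. The histone median of -0.338 turned to 0.00449 at a mean of 20 FPKM; the cause was not tested. Over 40 lists, 409 of 433 alternative medians moved by less than 0.0897, the median absolute difference between the induction replicates, and 23 moved further. The remaining 1 changed sign from a reported median larger in size than 0.0897. Sign changes of smaller medians were not counted apart. Lists that lead the text kept their sign in 120 of 120 alternatives. Of the calls 48.3% were higher, 50.4% after centring and 39.9% after scaling to equal totals, which shifted all loci by 0.0479.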

Other observations

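Other gene lists held smaller differences between the controls. Of 45 loci of lysosome and autophagy genes 2 were higher in control 2 by 1.5-fold (4.44%, the same share as over all loci). In the other direction 1 was lower (2.22%, against 4.76% of all loci), and the median was -0.07. Besides Sqstm1, the higher member was Gabarapl1, an autophagosome protein of the ATG8 family, at 33.4, 53.5, 38.4, 32.6 and 33.9 FPKM in control 1, control 2, heme 1, induction 1 and induction 2. Its relative Map1lc3b was at 32.3, 21.2, 20.2, 20.7 and 20.7 FPKM, where control 1 was the high library. Of 12 immediate early loci 2 were higher and 0 lower by 1.5-fold, against 4.44% and 4.76% of all loci, with a median of 0.20 that was 0.105 at a mean of at least 20 FPKM. Fosl1, a FOS-family subunit of AP-1, was at 41.4, 77.7, 43.4, 46.3 and 43.3 FPKM, and Ier3, an early response gene, at 32.9, 53.5, 38.1, 38.1 and 34.3 FPKM. All 11 interferon and antigen presentation loci were lower in control 2, 1 of them by 1.5-fold, with a median of -0.19. That member was Irf1, an interferon regulatory factor, at 11.04, 6.64, 11.9, 9.77 and 11.5 FPKM. Cxcl12, a chemokine, was at 10.5, 5.62, 8.39, 8.82 and 9.81 FPKM and was the 1 of 12 inflammatory loci lower by 1.5-fold.

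Of 10 loci of nuclear long RNAs and snoRNA hosts 4 were higher by 1.5-fold and 0 lower, with a median of 0.46, which was 0.124 without control 1 and 0.238 over single transcripts. Neat1, the scaffold of paraspeckles, listed in 1 locus with Gm27505, was at 35.0, 67.7, 43.5, 60.5 and 34.5 FPKM, and Snhg5, a snoRNA host, at 13.3, 21.2, 19.3, 28.5 and 18.3 FPKM. Induction 1 was close to control 2 or above it in both. Malat1 was at 10.8, 8.96, 11.4, 22.0 and 16.4 FPKM, lowest in control 2.

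Several loci outside the lists were lowest in control 2 by a wide margin and were chosen after their values were seen. Nrep, a neuronal regeneration protein, was at 28.0, 9.95, 28.4, 27.8 and 31.8 FPKM. Ogn, a small proteoglycan of the matrix, was at 90.3, 49.9, 84.5, 80.9 and 94.6 FPKM. C1qtnf1 was at 35.9, 16.7, 33.6, 31.0 and 35.9 FPKM. Cav1, the coat protein of caveolae, was at 24.2, 13.2, 20.7, 24.9 and 25.6 FPKM. Igfbp3, a binding protein of insulin-like growth factors, was at 18.9, 11.1, 18.3, 17.5 and 18.5 FPKM.

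The 5 loci of chromosome Y were higher in control 2 than in control 1, with a median of 0.39 and 0 past 1.5-fold, and the median against the other 3 libraries was 0.36. Ddx3y, an RNA helicase, was at 17.1, 22.8, 16.5, 18.2 and 17.0 FPKM.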
